A study of Caenorhabditis elegans with 2 samples.

Results

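The genes described are 5 transcription factor genes of Caenorhabditis elegans, ztf-7, dmd-7 and ceh-38 together with zip-2 and zip-4, out of 19973 protein-coding genes of the nuclear genome. They were chosen by the signal of peaks near their transcription start sites (TSSs) in the same chromatin immunoprecipitation sequencing (ChIP-seq) data, so their peaks are given as a description and are not tested. The immunoprecipitated protein was a C06A6.2-eGFP fusion, pulled down with an antibody to GFP from whole young adults of 67 hours, grown from L1 larvae that were starved after bleaching. The strain, OP810, carries the insertion wgIs810, which holds C06A6.2::TY1 EGFP 3xFLAG together with unc-119(+), on an unc-119 (tm4063) background. Both samples share this genotype, stage and treatment and are biological replicates 1 and 2 of a single group. The sources used here do not give the promoter that drives the fusion or the tissues that contain it, and whole worms mix all tissues. Neither untagged worms nor a control library were analysed here.

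A transcription factor binds short DNA sequences and alters transcription of nearby genes, and genes for such factors are themselves often targets of other factors. The members belong to 4 families. Zinc finger proteins of the C2H2 kind, such as ZTF-7, hold a zinc ion in each finger, and ZTF-7 is related to human ZNF277. DM-domain proteins, such as DMD-7, are named for fly Doublesex and worm MAB-3 and are best known from sexual differentiation. ONECUT proteins, such as CEH-38, join a cut domain to a homeodomain, and in worms they act in the expression of genes shared by all neurons. Proteins of the basic leucine zipper (bZIP) family, such as ZIP-2 and ZIP-4, bind DNA as dimers, and ZIP-2 is known for inducing defence genes when pathogens block translation.

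The sequences under 5 peaks at 4 of the genes are shown because each is the stretch of DNA that the peak of the gene, or the strongest peak in its reach, was placed on. They are the plus strand of WBcel235 (RefSeq), the assembly that ce11 names, cut to at most 300 bases around the summit and free of annotated UTRs of protein-coding genes. The dmd-7 stretch overlaps exons of the non-coding RNA genes K08B12.6 and K08B12.8, and the ztf-7 stretch an exon of F46B6.15. Capitals mark matches to the words searched on both strands, which were the word GAGAGA, the word ACGCAG, the word AAAAAT and the word TGACGT. The stretch for ceh-38 stops at the first annotated TSS, before the summit, since 179 bases past it, the summit included, are annotated UTR.
ztf-7 peak, chrV:9789968-9790128: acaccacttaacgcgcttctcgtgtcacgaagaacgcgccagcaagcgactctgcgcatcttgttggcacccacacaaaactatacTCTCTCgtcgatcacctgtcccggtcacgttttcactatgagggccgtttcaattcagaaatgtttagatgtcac
dmd-7 peak, chrV:6246536-6246835: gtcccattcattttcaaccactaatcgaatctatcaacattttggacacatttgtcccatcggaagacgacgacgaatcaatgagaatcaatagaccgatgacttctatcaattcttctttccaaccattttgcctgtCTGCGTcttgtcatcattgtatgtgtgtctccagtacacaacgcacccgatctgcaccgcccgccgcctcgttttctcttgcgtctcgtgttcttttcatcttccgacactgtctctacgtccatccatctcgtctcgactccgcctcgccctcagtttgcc
ceh-38 peak, upstream part, chrII:6951444-6951525: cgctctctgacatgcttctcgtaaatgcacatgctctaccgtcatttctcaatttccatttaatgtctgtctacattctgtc
zip-2 promoter peak, chrIII:833753-834052: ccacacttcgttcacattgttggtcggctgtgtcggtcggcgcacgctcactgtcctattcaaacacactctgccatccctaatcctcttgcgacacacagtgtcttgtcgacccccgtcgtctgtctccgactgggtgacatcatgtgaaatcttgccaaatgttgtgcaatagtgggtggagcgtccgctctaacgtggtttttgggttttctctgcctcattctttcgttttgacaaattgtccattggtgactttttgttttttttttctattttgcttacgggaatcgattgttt
peak past the 3′ end of zip-2, chrIII:835852-836072: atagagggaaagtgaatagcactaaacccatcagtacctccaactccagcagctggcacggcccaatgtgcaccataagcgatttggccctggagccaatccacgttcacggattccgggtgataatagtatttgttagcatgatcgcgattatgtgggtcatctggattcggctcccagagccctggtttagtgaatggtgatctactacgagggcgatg

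The word GAGAGA lay once near the ztf-7 summit, on the minus strand and 15 bp past it by plus-strand position. The word ACGCAG lay once near the dmd-7 summit, also on the minus strand, 11 bp before it. Within 100 bp of the summits of ceh-38, zip-4 and zip-2 none of the 4 words was found. AAAAAT was found in 0 of the 5 members' windows, which are too few to read a share from. It was found at 45.5% of the 1346 peaks of the conservative list, and at 55.3% of the 579 within 500 bp of a protein-coding TSS. Windows of the same 201 bp, centred 100 bp upstream of the 5′ ends of protein-coding genes, held it in 75.5% of cases. GAGAGA was found at 37.7% of conservative peaks and 16.3% of those upstream windows, and ACGCAG at 22.6% and 5.89%. TGACGT, the core of a site bound by many bZIP proteins, was found at 9.14% and 6.93%. At the 579 peaks within 500 bp of a protein-coding TSS the shares were 35.2% for GAGAGA, 23.7% for ACGCAG and 11.1% for TGACGT. The share of G and C in the 201 bp around the summit was 49.3% for ztf-7, 47.8% for dmd-7 and for zip-2, 46.8% for ceh-38 and 42.8% for zip-4. All 5 lay between the quartiles of the conservative list (40.3% and 50.2%, median 45.3%). The shares at conservative peaks were lower within 50 bp of the summit, at 20.7% for AAAAAT and 5.20% for TGACGT. These are matches of letters and not sites shown to be bound.

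Each of the 5 genes had a summit within 500 bp of a TSS in the conservative list, which draws on both replicates. That list has a limit on the irreproducible discovery rate (IDR), which is low for peaks that rank consistently high in repeated data. Over all protein-coding genes this share was 3.28%, and since this list chose the members, nothing is read from the difference. Within 2 kb, where the share over all genes was 6.46%, ztf-7, ceh-38 and zip-4 had no further conservative summit. There dmd-7 and zip-2 had 3 each, the promoter peak included. In the thresholded list of replicate 1 alone all 5 genes had a summit within 500 bp (2.02% of all genes), but that of zip-2 was not its conservative promoter peak. In that of replicate 2 alone 4 had one (2.34% of all genes), the exception being zip-4. The ranked lists, which carry no IDR threshold, placed a summit within 500 bp of 35.4% of genes in replicate 1 and 33.2% in replicate 2, so presence there says little by itself.

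**Figure D1:**
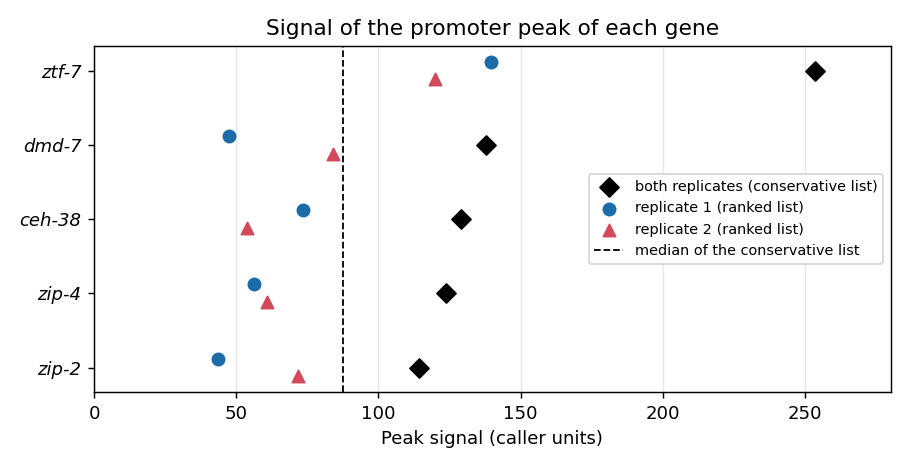
Signal of the promoter peak of each gene in the peak caller's units, for both replicates together (diamonds), replicate 1 (circles) and replicate 2 (triangles), with the median of the conservative list as a dashed line. The peak of ztf-7 stands at 253, and the other 4 lie between 114 and 138, all above the median of 87.4.

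Signal is the value the peak caller gave to a peak, higher where more fragments were enriched, on a scale that the sources used here do not state. The peak of ztf-7 had a signal of 253 and was rank 90 of the 1346 conservative peaks. The others followed at some distance, with 138 at dmd-7 (rank 275) and 129 at ceh-38 (rank 311). The bZIP genes came last, with 124 at zip-4 (rank 343) and 114 at zip-2 (rank 398). Among the 655 genes with a conservative summit within 500 bp, whose median signal was 99.5, ztf-7 was rank 65 and zip-2 rank 268. The members are thus in the upper part of the list but not among its strongest peaks, which reach 1433. Among the transcription factor genes listed, the next above ztf-7 was lin-54, with 264, and the next below zip-2 was xbp-1, with 100.03.

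The gene ztf-7 (WBGene00009772) lies on chromosome V, 9786993 to 9789707, on the minus strand. Its peak, 9789968 to 9790128, had its summit 332 bp upstream of the outer of 2 annotated TSSs, in intergenic sequence. The signal was 139.7 in replicate 1 and 120.01 in replicate 2, and the peak was rank 65 of 748 and rank 114 of 790 in their thresholded lists. Both replicates thus held it among their stronger peaks, with summits 23 bp apart. Nearer to the summit than ztf-7 itself was the TSS of the non-coding RNA gene F46B6.15, at 6 bp. The lipase-like gene lipl-2 started 1528 bp away. The next strongest summit within 2 kb in the joint ranked list, inside the coding sequence of ztf-7, had a signal of 30.3, so the promoter peak exceeded it by a factor of 8.36. This factor was 8.03 in replicate 1 and 7.34 in replicate 2, the highest of the 5 genes in each.

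The gene dmd-7 (WBGene00019521) lies on chromosome V, 6246931 to 6252458, on the plus strand, with 2 annotated TSSs. Its promoter peak, 6246525 to 6246844, had its summit 246 bp upstream of the first TSS. The signal was 47.5 in replicate 1 and 84.0 in replicate 2. The peak was rank 529 of 748 in the thresholded list of replicate 1 and rank 232 of 790 in that of replicate 2, so it stood far higher in the second. The summits were 6 bp apart. The summit also lay in the non-coding RNA gene K08B12.8, 227 bp from its TSS, and 14 bp from the TSS of the non-coding RNA gene K08B12.6. Further non-coding RNA genes, K08B12.7, K08B12.12 and K08B12.9, started 1086 to 1878 bp away.

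A second conservative peak at dmd-7, 6247353 to 6247672, had its summit 582 bp downstream of the first TSS, in its 5′ UTR, with a signal of 79.96. It had 39.1 in replicate 1 and 36.7 in replicate 2, so the replicates were closer there than at the promoter. Its IDR scores in the replicates' ranked lists were 586 and 813, on a scale that ends at 1000, and it was in neither thresholded list, whose lowest scores were 831 and 830. A further entry overlapped it, with its summit at 782 bp and a signal of 2.10. Entries of this kind recur in the list: of 65 conservative peaks with a signal under 10, 64 overlapped another conservative peak, against 186 of the 1281 with a higher one. Near the inner TSS of dmd-7, a summit 307 bp downstream in an intron had a signal of 60.1 in the joint ranked list. Its IDR score was 100 there and 554 in the other joint ranked list. The signal was uneven between the replicates, with 16.4 in replicate 1 and 39.9 in replicate 2.

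The gene ceh-38 (WBGene00000459) lies on chromosome II, 6951526 to 6955409, on the plus strand, with 11 annotated TSSs. The peak, 6951433 to 6951752, had its summit 67 bp inside the gene, in the 5′ UTR, and 26 bp upstream of the nearest TSS. The signal was 73.4 in replicate 1 and 53.7 in replicate 2, with summits 4 bp apart. The peak was rank 211 of 748 in the thresholded list of replicate 1 and rank 529 of 790 in that of replicate 2, which is the opposite order from dmd-7. The TSS of malt-1, which encodes a paracaspase related to human MALT1, was 293 bp away on the other strand, so the peak lies at the shared promoter of a divergent pair and is not assigned to either gene by the lists. No other ranked summit within 2 kb exceeded 36.3 in the joint list.

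The gene zip-4 (WBGene00021552) lies on chromosome I, 3264111 to 3266762, on the minus strand, with 4 annotated TSSs. The peak, 3266637 to 3266956, had its summit 35 bp upstream of the outermost TSS, in intergenic sequence. The signal was 56.2 in replicate 1 and 60.9 in replicate 2, the closest pair of the 5 genes, with summits 15 bp apart. In replicate 2 the IDR score was 808, just under the lowest score of that thresholded list (830), although the signal there was close to the list's median of 62.5. The same peak was 297 bp from the TSS of nol-58, a core protein of the particles that guide RNA methylation in the nucleolus, on the other strand. A further summit inside an intron of zip-4, 252 bp upstream of an inner TSS, had a signal of 55.2 in the joint ranked list. Its IDR score was 211 there and 687 in the other joint ranked list. The signal differed between the replicates, at 17.8 in replicate 1 and 37.1 in replicate 2.

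The gene zip-2 (WBGene00019327) lies on chromosome III, 832982 to 835814, on the plus strand, with 3 annotated TSSs. Its promoter peak, 833742 to 834061, was not at the gene's outer 5′ end but 920 bp inside the gene record, in an intron and 186 bp upstream of an inner TSS at 834088. The signal was 43.4 in replicate 1 and 71.8 in replicate 2, with summits 20 bp apart. In replicate 1 the IDR score was 616 and the peak was missing from the thresholded list. The summit that put zip-2 in the thresholded list of replicate 1 was a different one, 270 bp downstream of the innermost TSS (834305), in coding sequence, with a signal of 53.03. That site had no overlapping conservative peak. Its IDR score was 68 in the joint ranked list and 505 in the other joint ranked list. At the outer TSS itself, the joint ranked list had a summit 27 bp upstream with a signal of 26.9. The IDR score of that summit was 79, and 118 in the other joint ranked list. The snoRNA gene K02F3.15, inside zip-2, started 467 bp from the promoter summit, the lincRNA gene linc-37 918 bp from it, and ceeh-1, an epoxide hydrolase gene, 1625 bp from it.

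The strongest peak in reach of zip-2 was past its 3′ end. This peak, 835852 to 836072, had a signal of 202 (rank 132) and its summit lay 1688 bp from the nearest TSS of zip-2, in coding sequence of dos-3, a neighbouring gene on the minus strand whose TSS is outside the 2 kb. The non-coding RNA gene K02F3.13 started 1063 bp from it. The replicates placed it differently. Replicate 1 had 835886 to 836008 with a signal of 101, and replicate 2 had 836047 to 836123 with 88.8, and the intervals share no base. A second conservative entry, 836046 to 836365, overlapped the first with a signal of 4.76. The promoter peak of zip-2 thus had 0.564 times the signal of this neighbour in the joint list, while for the other 4 genes the promoter peak was the strongest within 2 kb.

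**Figure D2:**
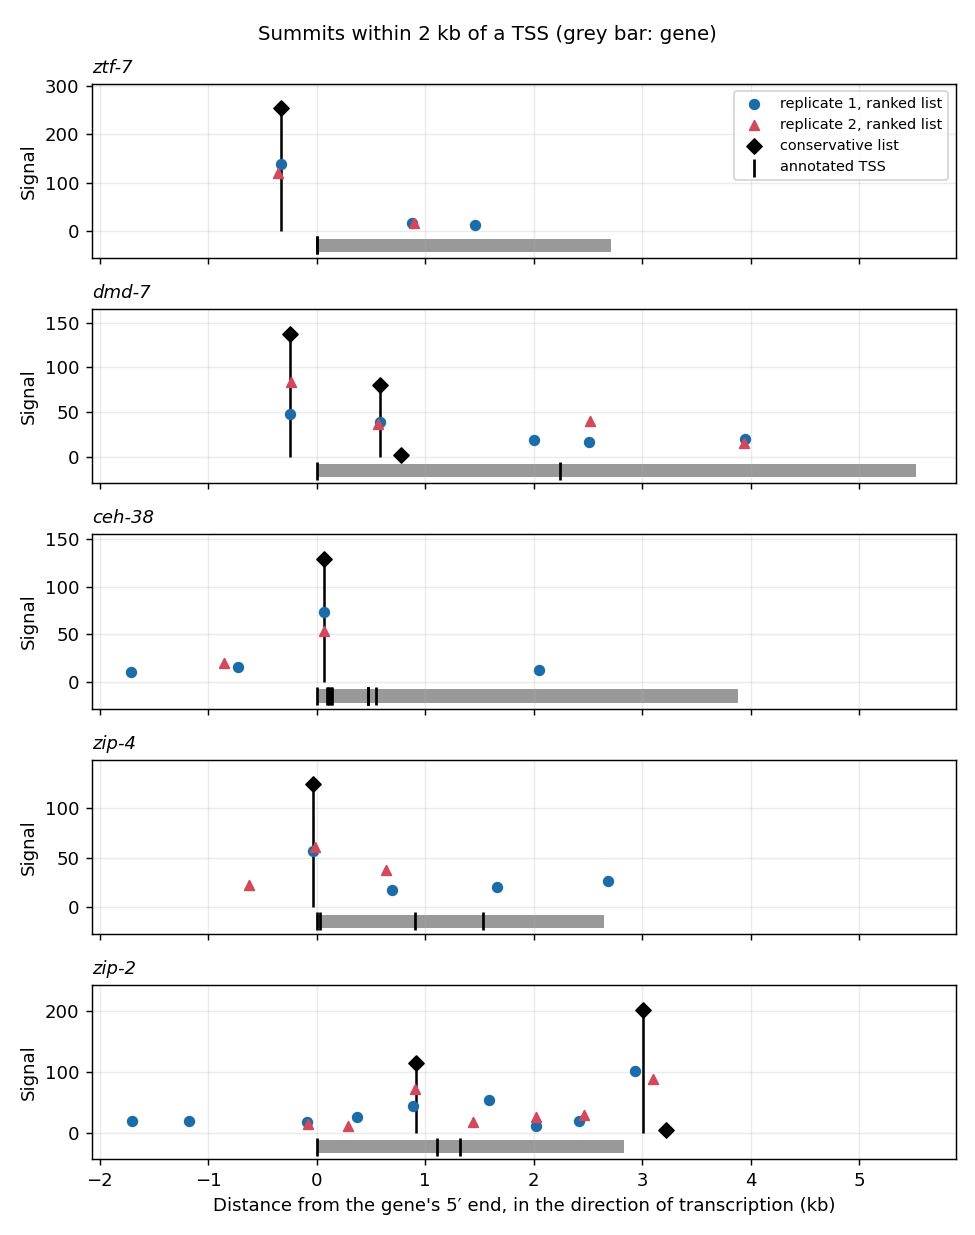
Signal (vertical axis, caller's units) of every summit within 2 kb of a TSS against its distance from the gene's 5′ end in kb, for replicate 1 (circles), replicate 2 (triangles) and the conservative list (diamonds with stems), with the gene as a grey bar and its TSSs as ticks. The peak of ztf-7 stands alone upstream of the gene, while dmd-7 and zip-2 have 3 conservative entries each.

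The 5 genes differed from each other in how the replicates shared their signal. In replicate 1 the order was ztf-7, ceh-38, zip-4, dmd-7 and zip-2, and in replicate 2 it was ztf-7, dmd-7, zip-2, zip-4 and ceh-38. Averaged over the replicates, ztf-7 had 129.8 ± 13.9 (SD, n = 2) and was above every other member in both. The means of the other 4 were 65.8 ± 25.8 at dmd-7, 63.6 ± 13.9 at ceh-38, 58.6 ± 3.27 at zip-4 and 57.6 ± 20.07 at zip-2 (SD, n = 2 each). None of these 4 neighbours differed from the next beyond that spread, and the order of the conservative signals among them is therefore not firm.

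The ratio of replicate 2 to replicate 1 was 1.77 at dmd-7, 1.65 at zip-2, 1.08 at zip-4, 0.859 at ztf-7 and 0.732 at ceh-38. Across the 1331 conservative peaks found in both ranked lists its median was 1.14, with quartiles of 0.939 and 1.37 and a range from 0.710 at the 5th percentile to 1.78 at the 95th. The peak of dmd-7 therefore stood near the upper end, above 94.7% of the peaks, with zip-2 above 92.4%. The peak of ceh-38 stood near the lower end, above 6.31% of them, with ztf-7 above 18.03% and zip-4 above 43.7%. Overlapping conservative peaks could be matched to the same replicate peak, so the 1331 pairs of values are not all distinct. Summits of the members were 4 to 23 bp apart between the replicates. Over the conservative peaks the median was 26 bp, and 42.0% were at most 20 bp apart. Since the members were chosen for their signal, nothing is read from this. The joint signal was 0.976 to 1.06 times the sum of the replicates' signals at the members, against a median of 0.991 over the list.

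**Figure D3:**
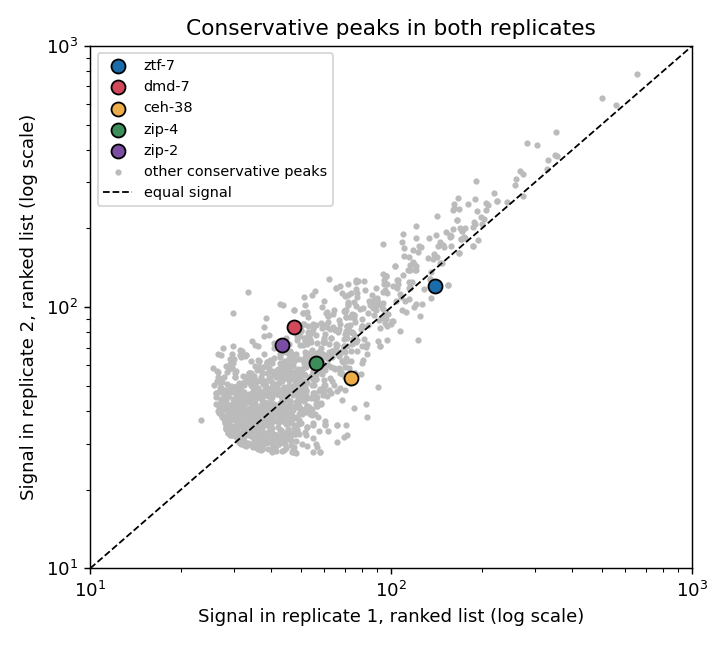
Signal of each conservative peak in the ranked list of replicate 1 (horizontal) and replicate 2 (vertical), both on log scales, with the 5 genes as large coloured points and a dashed line of equal signal. The points of dmd-7 and zip-2 lie above the line, those of ztf-7 and ceh-38 below it, and that of zip-4 close to it.

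The lists of family genes used were bZIP, DM-domain, ONECUT and the genes named ztf, with 69 annotated genes, of which 9 (13.04%) had a conservative summit within 500 bp, against 3.28% of all genes. The members are 5 of those 9, so the share repeats their choice. Without them it was 4 of 64 genes (6.25%). Of 25 genes named ztf, ztf-7 was the only one, of 10 DM-domain genes dmd-7, and of 6 ONECUT genes ceh-38. Since each was chosen for its peak and few genes have one, nothing is read from their being alone.

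The bZIP family had 6 of 28 genes with such a summit (21.4%, median signal 97.1), against 3.28% of all protein-coding genes. The members zip-4 and zip-2, chosen for their peaks, are among the 6, so nothing is read from this share. The others were xbp-1, atf-6, jun-1 and atf-4. The product of xbp-1 drives the response to unfolded proteins in the endoplasmic reticulum. Its peak had 100.03 in the conservative list, 50.3 in replicate 1 and 47.8 in replicate 2, 10 bp from a TSS. The peak of atf-6, another regulator of that response, had 94.2, with 34.7 in replicate 1 and 54.3 in replicate 2. That of jun-1, which encodes a Jun homologue, had 90.9, with 49.9 and 39.4 in replicates 1 and 2. That of atf-4, a regulator of the integrated stress response, had 72.5, with 27.9 and 45.3 in replicates 1 and 2. In the replicates' own thresholded lists, xbp-1 and jun-1 were present in both, whereas atf-4 and atf-6 were found only in the replicate 2 list. None of the signals of these 4 genes reached those of the members in the conservative list. The atf-4 summit also lay within 500 bp of a TSS of the gene WBGene00303075.

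The family genes without a conservative summit had signals below those of the members in each replicate, where they had any. Of these 60 genes, 23 had a ranked summit within 500 bp in both replicates and 16 in neither. Their highest signals were 28.1, at zip-11 in replicate 1, and 38.8, at crh-1, a CREB homologue, in replicate 2. The lowest signals at the promoter peaks of the 5 members were higher, 43.4 in replicate 1 and 53.7 in replicate 2. Among the other 4 family genes with a conservative summit, the lowest were 27.9, at atf-4 in replicate 1, and 39.4, at jun-1 in replicate 2. These left no clear gap to the 60 genes. The members were chosen for their signal and the 60 genes lack a conservative summit. The gap between members and the 60, and those within families that follow, therefore repeat the choice, and nothing is read from them. Within the DM-domain family the next gene was dmd-6, with 23.4 in replicate 1 and 20.4 in replicate 2, against 47.5 and 84.0 at dmd-7. Among ONECUT genes ceh-49 came next in replicate 1 with 17.4 and ceh-39 in replicate 2 with 27.6, against 73.4 and 53.7 at ceh-38. Among the other genes named ztf the highest were ztf-8 with 26.7 in replicate 1 and ztf-9 with 27.98 in replicate 2.

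**Figure D4:**
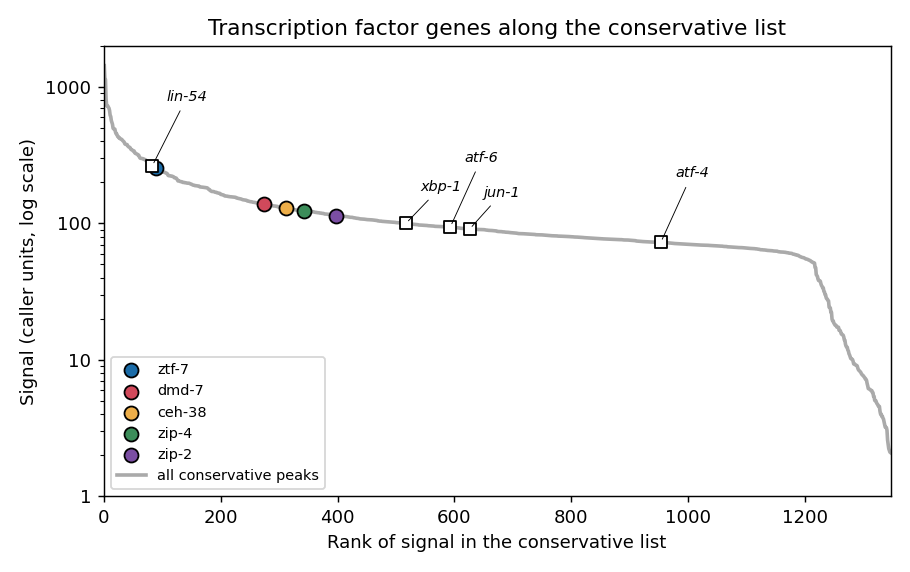
Signal of all 1346 conservative peaks (log scale) against their rank, as a grey line, with the 5 genes as coloured points and other listed transcription factor genes as white squares. The members lie at ranks 90 to 398, with lin-54 just above ztf-7 and xbp-1, atf-6, jun-1 and atf-4 below zip-2.

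Sharing a peak was common. Of the 579 conservative peaks within 500 bp of a protein-coding TSS, 132 (22.8%) reached more than 1 protein-coding gene, as the peaks of ceh-38 and zip-4 did. The peaks of ztf-7, dmd-7 and zip-2 reached a single protein-coding gene within 500 bp, but each was also within that distance of the start of a non-coding RNA gene. The share of all 579 peaks that lie so near such a start is not given here, so nothing is read from this. The median distance of these 579 summits to the nearest protein-coding TSS was 176 bp, and the members lay on both sides of it, from 26 bp at ceh-38 to 332 bp at ztf-7.

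Other promoter peaks had almost the same signals as the members. Likeness was measured as the Euclidean distance of log2 signals over 3 lists (conservative and the ranked lists of replicates 1 and 2) among 572 promoter peaks. The nearest to ztf-7 were the peaks of wwp-1, a ubiquitin ligase gene (distance 0.031), and of ruvb-1, a RuvB-like ATPase gene (0.148). The nearest to dmd-7 were those of tsr-2 (0.088) and C06A5.3 (0.105), and to ceh-38 those of D2030.2 (0.066) and tmem-107 (0.167). The nearest to zip-4 were tomm-20, a gene of the mitochondrial import machinery (0.050), and T13C5.6 (0.056). Closest to zip-2 were rpl-14, a ribosomal protein gene (0.052), and rab-18, a small GTPase gene (0.089). All of these peaks come from the same 2 libraries, and the likeness describes their heights alone.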

How the data were processed

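ChIP-seq peak lists of 2 replicates of 1 group were used, with positions in ce11, per the file headers. The authors' deposited lists hold, for each peak, a signal (the peak caller's value, scaling not stated) and an IDR score (up to 1000, higher for a lower IDR). The replicates' lists came from each replicate's alignments and the joint lists from both, each with a further shared source file whose role was not stated. No source used here names the aligner or the peak caller. Signal tracks listed as fold change over control were not used here. Of the 2 joint ranked lists, the one whose member intervals matched the replicates' ranked lists (67.7% and 65.8%, against 5.63% and 0% in the other) is called the joint ranked list. Read numbers were not in the files used, so depth is unknown.

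Summits were compared with 29784 TSSs of 19973 protein-coding genes (Ensembl release 115, WBcel235), counting every transcript start and distances of at most 500 bp. No peak or gene ended beyond its RefSeq chromosome. A member's peak in another list is the overlapping peak (1 bp or more) of highest signal. The assignment was checked on planted summits. Python 3.11.15, pandas 2.3.3 and numpy 2.4.6 were used. The named genes are the 5 members, genes with a TSS within 2 kb of their conservative summits, family genes with a conservative summit or the highest ranked signal, the genes next above and below the members by signal, and for each member the 2 most alike. Genes with the highest ranked signals, dos-3 and the regulators without a conservative summit were added after their values were seen. Members and lists were chosen with earlier results of these data known. With 1 group there is no contrast, and no test was made. The listed symbols atf-5 and dmd-11 were not found in the annotation.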

Additional observations from a re-analysis of the deposited data

How the results depend on the processing

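The count of 5 members with a summit within 500 bp stayed at 4 or 5 under all 10 alternatives. It was 4 with a window of 250 bp (without ztf-7), with the list of replicate 2 alone (without zip-4) and with the 5′ end of the gene record as the only TSS (without zip-2). Wider windows, any base of the peak in place of the summit, and the joint ranked list kept every gene already called. The members were also chosen for their signal, so a stable count was largely fixed in advance. Leaving out a replicate gave 4 to 5 members, 7 to 8 of the 69 family genes and 404 to 468 of all protein-coding genes, against 5, 9 and 655. With replicate 1 alone, zip-2 was kept by a summit other than its conservative promoter peak. The number of all protein-coding genes was 417 at 250 bp, 1290 at 2000 bp, 399 with only peaks above the median signal and 6720 in the joint ranked list. The number of family genes was 14 at 2000 bp and 40 in the joint ranked list. These follow from the construction of the alternatives, which use wider or narrower windows or more or fewer peaks. The distance of zip-2 was 920 bp from the end of the gene record instead of 186 bp. The ratios between replicates moved by less than their spread over all peaks in all 13 comparisons, but these comparisons could hardly move them. Summits within 100 bp and the thresholded lists returned the same peaks with the same signals. Dividing by the median signals rescaled every ratio by the same factor, and put zip-4 at 0.977 instead of 1.08. Within 50 bp instead of 100 bp of the summit, the share of conservative peaks was 24.4% instead of 37.7% for GAGAGA, 15.5% instead of 22.6% for ACGCAG, 20.7% instead of 45.5% for AAAAAT and 5.20% instead of 9.14% for TGACGT. No paired analysis was possible because there is a single group. With 2 replicates and unknown depth, differences of the size seen between the 4 members other than ztf-7 cannot be resolved.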

Other observations

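A list of 15 annotated regulators of stress and growth was read for scale. Of these, 4 had a conservative summit within 500 bp of a TSS (26.7%, against 3.28% of all protein-coding genes), namely lin-54, xbp-1, atf-6 and atf-4. The list was chosen with earlier results of these data known, so nothing is read from this share. The genes xbp-1, atf-6 and atf-4 were also counted in the bZIP family above. The peak of lin-54 also reached rpl-12, and the signal there was 264 in the conservative list, 135.9 in replicate 1 and 135.7 in replicate 2. The other 11 had none. Of those 11, 8 had a ranked summit within 500 bp in both replicates. The highest signal in replicate 1 was 29.5, at hif-1, the hypoxia factor gene, which had 31.2 in replicate 2. The highest in replicate 2 was 38.9, at hlh-30, a regulator of autophagy genes, which had 25.9 in replicate 1. The FOXO gene daf-16 had 24.9 in replicate 1 and 37.3 in replicate 2, and the heat shock factor gene hsf-1 had 21.6 in replicate 1 and 20.3 in replicate 2. The gut factor gene elt-2 and mxl-2 had no ranked summit within 500 bp in either replicate.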
